A study of Mus musculus with 6 samples.

Results

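The genes of the axon guidance ligands and receptors were described in inguinal adipose tissue (iAT) of mice at postnatal day 6, in 3 wild-type samples and in 3 samples in which *Npffr1*, which encodes neuropeptide FF receptor 1, was ablated (Npffr1-KO). The members were found by symbol. They were all semaphorins (*Sema*), plexins (*Plxn*), *Unc5* genes, slits, robos, netrins (*Ntn*), neuropilins (*Nrp*), ephrins (*Efna*, *Efnb*) and Eph receptors (*Epha*, *Ephb*), with *Dcc* and *Neo1*. Of the 19831 genes of the deposited table, 72 symbols matched. 2 of them share only the letters of the rule, *Unc50*, a gene of membrane traffic, and *Plxna4os1*, an RNA antisense to *Plxna4*, and 70 genes remained, 35 ligands and 35 receptors. *Unc5cl*, which is not known as a netrin receptor, was kept among the receptors by its symbol. The labels give neither strain, sex nor the kind of knockout allele, and whether each sample was 1 animal or a pool is not stated, so that the spread between samples may be technical.

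Guidance molecules steer growing axons. A ligand that is secreted or sits on a neighbouring cell binds a receptor on the growth cone, which then turns towards it or away from it by rearranging its actin skeleton. Semaphorins bind plexins, the class 3 semaphorins mostly with a neuropilin as co-receptor, slits bind robos, netrins bind Dcc, neogenin and Unc5 receptors, and ephrins bind Eph receptors with signals running into both cells. The same molecules also pattern blood vessels and act on immune cells, and in fat they are known from vessels, nerves and stromal cells.

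The table holds 1 value per gene and genotype. These are read counts that the authors normalised for library size, and the mean of both equals the mean over the 6 libraries, while their ratio is drawn towards 0 for genes with few reads. A value is therefore given as the authors' value, with no error, and a ratio of 2 such values is a description without a test. For genes of low and middle levels the whole reads of each library could be recovered from the authors' values, and these carry a spread. The recovered libraries are called A, B and C within each genotype and are not tied to sample numbers. The sum of the authors' values was 23137343 for wild-type and 23640005 for Npffr1-KO, with library size factors from 0.916 to 1.04. The members held 0.341% of this sum in wild-type, and 0.288% of that for Npffr1-KO. These shares are not centred on gene length, with which the ratios moved as described below, and they weigh abundant members most. The targeted gene *Npffr1* had 5, 0 and 1 reads in the wild-type libraries and 0 reads in each of the Npffr1-KO libraries, too few to check the labels.

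Guidance genes were widely present in iAT, with the vascular receptors at the top. Levels between genes were compared per kb of the gene length listed in the table. In wild-type iAT, 35 of the 70 members reached an authors' value of at least 100 normalised reads per kb and 3 reached 1000. The highest was *Plxnd1* (Entrez 67784), the plexin of developing vessels, with 1821 per kb, which was 1.29 times the next. *Robo4*, the robo of endothelial cells, followed with 1409 per kb, and *Nrp1*, a co-receptor of both class 3 semaphorins and VEGF, with 1094 per kb. *Ephb4*, the Eph receptor of veins, had 926 per kb, and its ligand *Efnb2*, which marks arteries, had 358 per kb. The other ephrins with a high level were *Efnb1* with 888 and *Efna1* with 808 per kb. Because the authors' values carry no error, neighbours in this order could not be compared with their spread. The samples are whole tissue, in which fewer cells of a type and less RNA per cell cannot be told apart.

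At the other end were receptors best known from the nervous system. *Dcc*, the main attractive netrin receptor of axons, had 0, 3 and 0 reads in the wild-type and 1, 2 and 0 reads in the Npffr1-KO libraries A, B and C. *Epha10* had a single read in all libraries together. *Robo3*, the robo of commissural axons, had 3, 2 and 1 reads in wild-type against 3, 2 and 7 in Npffr1-KO. *Epha6* had 2, 1 and 0 reads in wild-type against 4, 4 and 2 in Npffr1-KO. *Unc5d* had 8, 7 and 4 reads against 2, 5 and 3, and the ephrin *Efna3* 6, 2 and 6 against 1, 3 and 2. These 6 members had a mean under 10 normalised reads and were left out of the ratios below, and differences in them were not detectable at this depth. *Epha8* is not listed in the table.

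**Figure D1:**
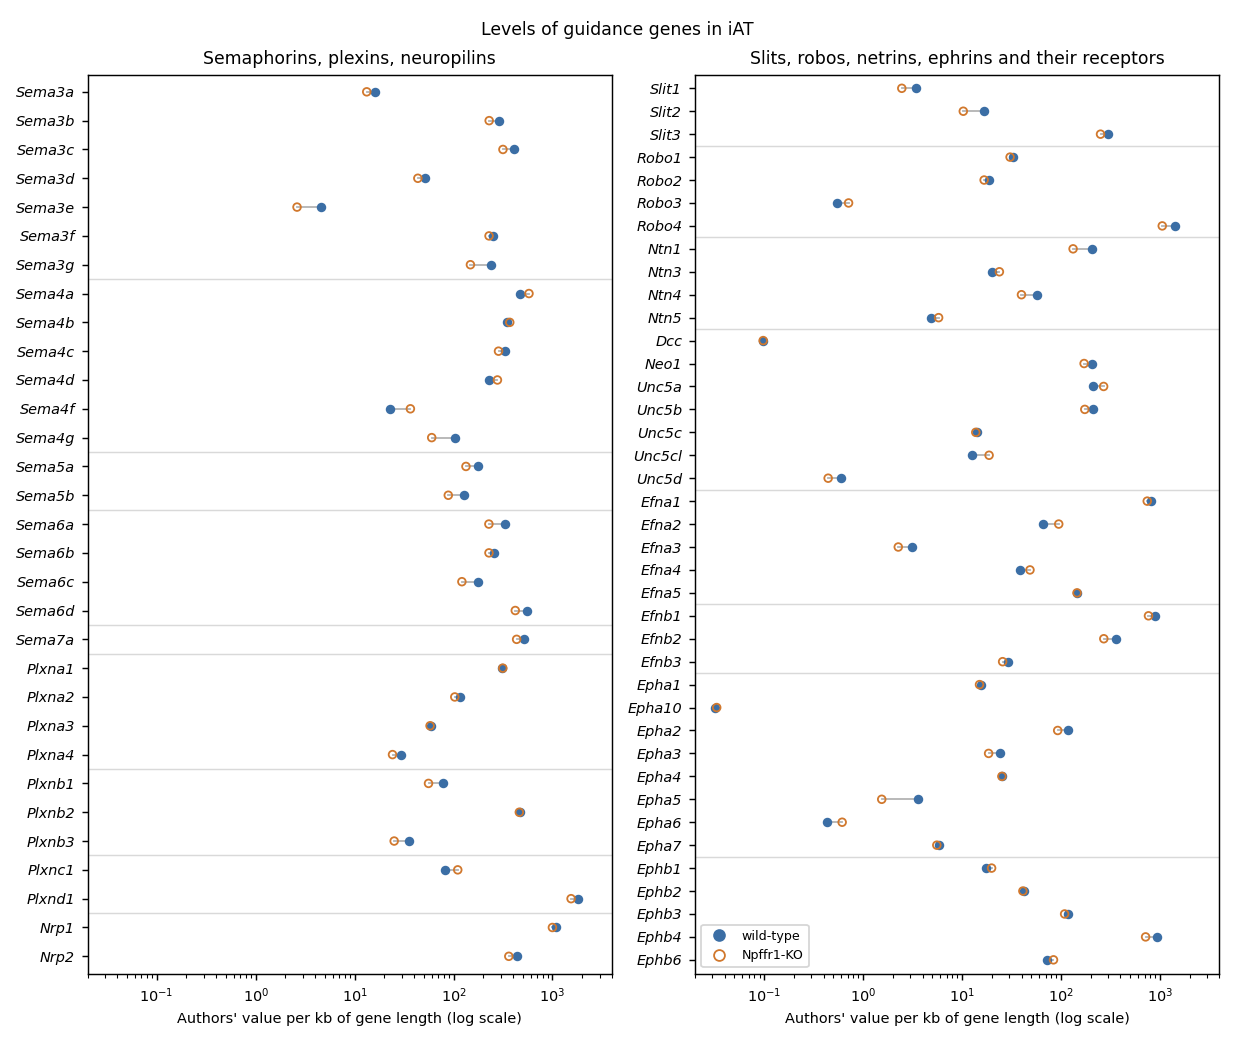
Authors' value per kb of gene length (log scale) of the 70 guidance genes in wild-type (filled) and Npffr1-KO (open), grouped by family with lines between the families. *Plxnd1*, *Robo4* and *Nrp1* lie highest, at 1094 to 1821 per kb in wild-type, and *Epha10* lies lowest.

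Most guidance genes had a lower value in Npffr1-KO, and part of this went with their length. Among the 64 members with a mean of at least 10 normalised reads, the log2 ratio of the authors' values (Npffr1-KO over wild-type) was below 0 in 50, with a median of -0.21. Of all 15309 genes with such a mean, 48.8% were below 0. Guidance genes are long, with a median of 4934 bases against 2785 for all genes, and 58 of the 64 measured at least 3000 bases. The median ratio over all genes moved from 0.27 in the shortest of 20 length classes, of up to 836 bases, to -0.15 in the longest, of at least 7427 bases. Of all genes of at least 3000 bases 65.9% were below 0, against 48 of the 58 members of that length. The median ratio of these long members was -0.24, and that of long genes was -0.08. The 6 shorter members had a median of 0.30, against 0.10 for all shorter genes.

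Every ratio was therefore centred by taking off the median of all genes in its length class. After this centring, which sets the median of all genes to 0, 42 of the 64 members lay below 0 and their median was -0.14. At least 1.3-fold lower in Npffr1-KO were 11 members, which is 11 of 64 beside 8.93% of all genes. At least 1.3-fold higher were 5 members, beside 6.12% of all genes. At 1.5-fold, 4 members were lower, beside 3.51% of all genes, and 1 was higher, beside 2.24%. The 34 ligands had a median of -0.20, with 9 lower and 2 higher by 1.3-fold, and the 30 receptors a median of -0.02, with 2 lower and 3 higher. The difference between ligands and receptors was not tested. Without centring, 18 members were lower, beside 8.88% of all genes and 11.4% of those of at least 3000 bases, and 4 were higher, beside 8.67% of all genes. The 7 members lower only without centring were *Efnb2*, *Epha3*, *Plxnb1*, *Robo4*, *Sema5a*, *Sema6d* and *Slit1*, and *Unc5a* was higher only with it.

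**Figure D2:**
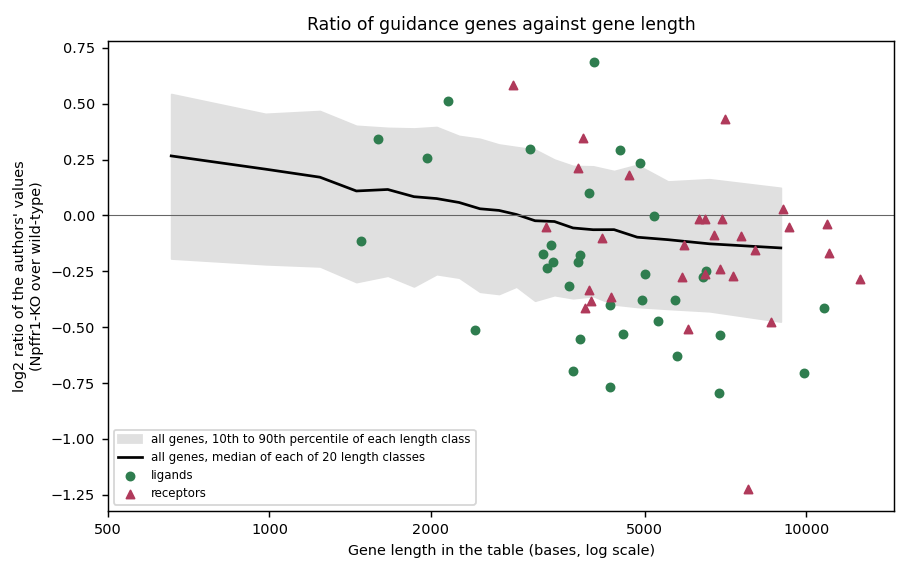
Log2 ratio of the authors' values (Npffr1-KO over wild-type) against gene length in bases (log scale) for ligands (circles) and receptors (triangles) with a mean of at least 10 normalised reads. The line gives the median and the band the 10th to 90th percentile of all genes in each of 20 length classes, and 50 of the 64 members lie below 0.

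Of the 20 semaphorins, 16 had a centred ratio below 0, where centring places as many of all genes below 0 as above. By 1.3-fold 6 were lower and 1 was higher, beside 8.93% and 6.12% of all genes. All 7 class 3, 2 class 5, 4 class 6 and 1 class 7 genes lay below 0 with and without centring, whereas 4 of the 6 class 4 genes lay above 0. Without centring, 65.9% of all genes of at least 3000 bases lay below 0. The classes 3, 5, 6 and 7 were put together after their values were seen. Class 3 semaphorins are secreted and mostly repel axons and endothelial cells, and their median centred log2 ratio was -0.26. *Sema3g* (Entrez 218877), known from arterial endothelium, had an authors' value of 885 in wild-type against 546 in Npffr1-KO, a centred log2 ratio of -0.64. *Sema3c*, the highest of the class with 2032 in wild-type against 1564 in Npffr1-KO, had a centred log2 ratio of -0.28, and *Sema3b*, with 1034 and 830, one of -0.26. The remaining members *Sema3a*, *Sema3d* and *Sema3f* had centred log2 ratios of -0.15, -0.12 and -0.10.

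*Sema3e* (Entrez 20349), which acts on *Plxnd1* without a neuropilin, was a low gene of this class with recovered reads. Its normalised read counts were 37.7, 31.3 and 29.9 in the wild-type libraries A, B and C and 9.82, 27.2 and 11.6 in the Npffr1-KO libraries. All 3 Npffr1-KO libraries thus lay below all 3 wild-type libraries, with library B of Npffr1-KO close to them. Such an order was seen in 10.4% of all genes with recovered reads and a mean of at least 10. The means were 33.0 ± 4.15 and 16.2 ± 9.60 (SD, n = 3 each). The log2 fold change was -1.14 with a standard error of 0.41, and in limma across all genes with recovered reads the adjusted p was 0.30, so that it did not pass 0.05. The limma fold changes given here are not centred on length. With each library centred on length it was -0.98, with an adjusted p of 0.42, and over means of at most 100 with this centring -0.69, with an adjusted p of 0.56 in limma. *Sema3a*, the founding member of the class, had 134, 98.9 and 80.2 normalised reads against 54.6, 109 and 88.7, and the genotypes overlapped.

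Class 4 semaphorins are membrane proteins, several of them made by lymphocytes and other immune cells, and here the members differed most. *Sema4f* (Entrez 20355), known from the nervous system, had 93.3, 107 and 69.5 normalised reads in wild-type against 124, 161 and 162 in Npffr1-KO. Each Npffr1-KO library exceeded each wild-type library, as in 7.96% of all genes with recovered reads and a mean of at least 10. The means were 89.8 ± 18.8 and 149 ± 21.5 (SD, n = 3 each), and the log2 fold change was 0.74 with a standard error of 0.22 and an adjusted p of 0.20 in limma. With each library centred on length the fold change was 0.83, again with an adjusted p of 0.20 in limma. *Sema4g* (Entrez 26456) stood at the opposite end, with an authors' value of 442 in wild-type against 259.3 in Npffr1-KO and a centred log2 ratio of -0.70. *Sema4a* had 1441 and 1770, and *Sema4d*, the semaphorin of T cells that binds *Plxnb1*, had 1019 and 1248, with centred log2 ratios of 0.32 and 0.36. *Sema4b* with 0.16 and *Sema4c* with -0.15 lay closer to 0.

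Class 5 and class 6 semaphorins span the membrane and can act as ligand or receptor. *Sema6d* was the semaphorin with the highest level, at 547 per kb in wild-type, and its authors' value was 3125 in wild-type against 2401 in Npffr1-KO, a centred log2 ratio of -0.27. *Sema6c* had 674 and 460 and *Sema6a* 2275 and 1571, with centred log2 ratios of -0.50 and -0.41. *Sema6b* had a centred log2 ratio of -0.12. *Sema5b* had 583 and 403 and *Sema5a* 1925 and 1443, with centred log2 ratios of -0.47 and -0.27. *Sema7a*, which is tethered to the membrane by a lipid anchor and binds *Plxnc1* and integrins, had 1683 and 1428, with a centred log2 ratio of -0.21.

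The sequences around the start sites of the semaphorins with the largest ratios in size are shown, 3 that were lower in Npffr1-KO and 1 that was higher, to set the start sites of both directions side by side. They hold 250 bases before and 50 after the start, as RefSeq gives them on GRCm38.p6. *Sema4g* lies at chr19:44989094-44989393, *Sema3e* at chr5:14025026-14025325 and *Sema3g* at chr14:31217623-31217922, all on the plus strand, and *Sema4f* lies at chr6:82939720-82940019 on the minus strand. Capitals mark the GC box GGGCGG and the E-box CACGTG, each searched on both strands.
Sema4g: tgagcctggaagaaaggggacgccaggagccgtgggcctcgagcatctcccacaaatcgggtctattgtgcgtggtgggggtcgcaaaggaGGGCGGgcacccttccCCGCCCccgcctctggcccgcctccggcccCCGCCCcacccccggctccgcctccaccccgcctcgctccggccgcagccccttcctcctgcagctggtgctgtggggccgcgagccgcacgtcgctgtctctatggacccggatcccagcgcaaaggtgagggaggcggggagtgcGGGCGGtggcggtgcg
Sema3e: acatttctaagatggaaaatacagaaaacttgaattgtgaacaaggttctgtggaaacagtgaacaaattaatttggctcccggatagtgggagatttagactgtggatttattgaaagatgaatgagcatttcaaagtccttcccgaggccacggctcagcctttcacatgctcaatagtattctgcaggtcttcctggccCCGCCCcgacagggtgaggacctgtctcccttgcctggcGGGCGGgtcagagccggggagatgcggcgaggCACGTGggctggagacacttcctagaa
Sema3g: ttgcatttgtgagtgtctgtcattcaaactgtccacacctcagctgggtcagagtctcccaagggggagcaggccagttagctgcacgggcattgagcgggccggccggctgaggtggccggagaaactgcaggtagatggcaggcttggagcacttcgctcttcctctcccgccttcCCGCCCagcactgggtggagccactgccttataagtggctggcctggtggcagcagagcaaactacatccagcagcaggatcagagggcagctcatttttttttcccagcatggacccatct
Sema4f: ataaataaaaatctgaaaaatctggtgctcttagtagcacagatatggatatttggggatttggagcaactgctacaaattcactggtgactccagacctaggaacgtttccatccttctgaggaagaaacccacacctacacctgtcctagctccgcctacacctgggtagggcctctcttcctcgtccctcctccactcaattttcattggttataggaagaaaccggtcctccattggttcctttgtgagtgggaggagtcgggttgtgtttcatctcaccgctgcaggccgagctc

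The GC box occurred 4 times in the window of *Sema4g*, 2 times in that of *Sema3e* and once in that of *Sema3g*, while these letters did not occur in that of *Sema4f*. The window of *Sema3e* also held 1 E-box. G and C made up 73.3% of the window of *Sema4g*, 50.7% of that of *Sema3e*, 58.7% of that of *Sema3g* and 48.7% of that of *Sema4f*. Of the 70 members 60 matched a RefSeq window by gene identifier. The GC box was found in 73.3% of these, and in 61.0% of the 12068 windows of all genes with a mean of at least 10. The E-box was in 3 of the 60 windows of members and in 9.68% of all. The TATA box TATAAA was in 3.33% and 7.53%, and the ETS core CCGGAAG in 3.33% and 16.3%, with none of these 2 in the windows shown. GC boxes that overlap were counted separately, and the E-box reads the same on both strands. These shares are counts of letters, and no binding was measured.

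Plexins and neuropilins, the receptors of semaphorins, had ratios on both sides of 0. The 9 plexins had a median centred log2 ratio of -0.02, against -0.24 for the 20 semaphorins, a difference that was not tested. Of the 9 plexins 1 was lower and 1 was higher by 1.3-fold, beside 8.93% and 6.12% of all genes. *Plxnc1* (Entrez 54712), the receptor of *Sema7a* that is known from leukocytes, had an authors' value of 577 in wild-type against 778 in Npffr1-KO, a centred log2 ratio of 0.56. *Plxnb3* lay just past the 1.3-fold limit, with 215 and 151 and a centred log2 ratio of -0.38. *Plxnb1* had 668 and 480, with a centred log2 ratio of -0.33, and the far more abundant *Plxnb2* 3027 and 2996, with one of 0.11. *Plxnd1* had 12587 and 10656, a log2 ratio of -0.24 that became -0.11 with centring. The co-receptors *Nrp1*, with 6479 and 5910, and *Nrp2*, with 2807 and 2344, had centred log2 ratios of -0.02 and -0.13. *Plxna1* had 2787 and 2845 and *Plxna2* 1279 and 1137. The median of the 4 class A plexins was -0.09 without centring and 0.04 with it, so that their direction depended on the centring. The antisense RNA *Plxna4os1* had 15.9, 5.87 and 7.73 normalised reads in wild-type against 20.7, 20.2 and 19.3 in Npffr1-KO, without overlap, but the strand setting of the counting is unknown and reads of *Plxna4* itself may be among them.

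**Figure D3:**
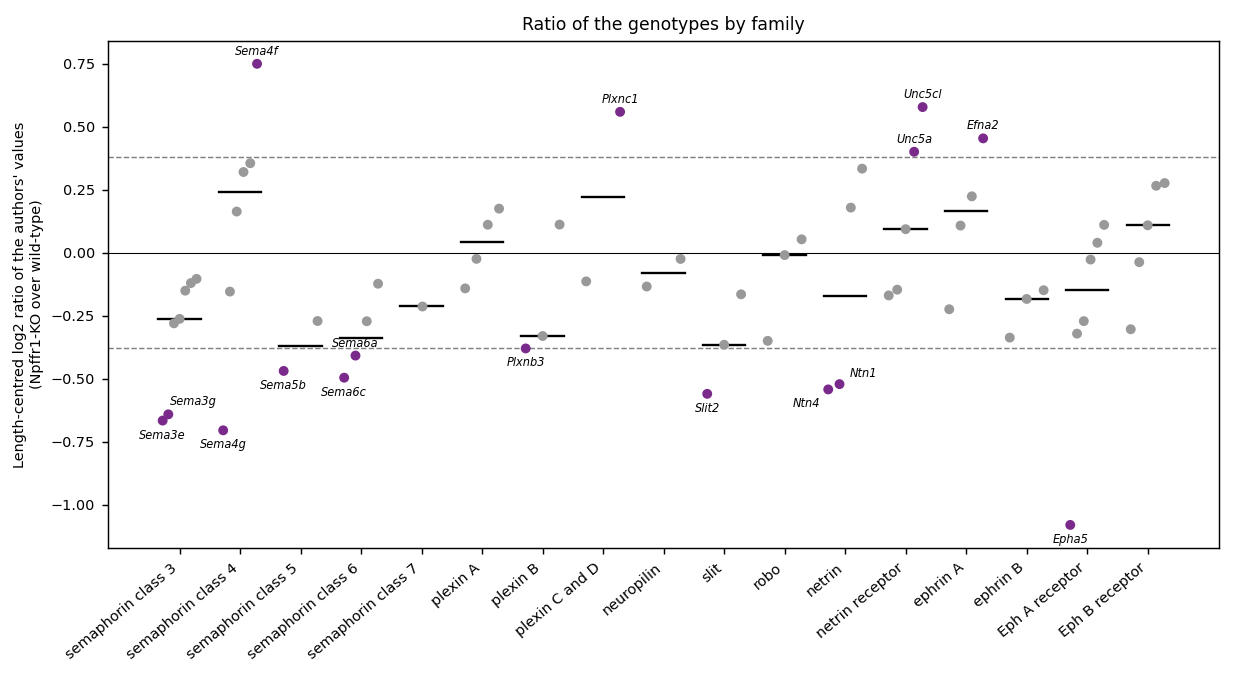
Length-centred log2 ratio of the authors' values (Npffr1-KO over wild-type) of the 64 guidance genes with a mean of at least 10 normalised reads, by family. Bars are family medians and dashed lines mark 1.3-fold, beyond which 11 members lie below and 5 above.

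All 3 slits, the secreted ligands of robos, had a lower value in Npffr1-KO. They are long genes, and without centring 65.9% of all genes of at least 3000 bases lay below 0. *Slit2* (Entrez 20563), which is also made by adipose cells, had an authors' value of 167 in wild-type against 102 in Npffr1-KO, a centred log2 ratio of -0.56. *Slit3* was the most abundant, with 1513 and 1262, and had a centred log2 ratio of -0.16. *Slit1* had 19.8, 16.6 and 20.3 normalised reads in wild-type against 14.2, 12.1 and 10.6 in Npffr1-KO, so that the genotypes did not overlap. Npffr1-KO lay wholly below wild-type in 10.4% of all genes with recovered reads and a mean of at least 10. The log2 fold change of *Slit1* was -0.61 with a standard error of 0.41 and an adjusted p of 0.58 in limma. Its centred log2 ratio was -0.36, short of 1.3-fold. Among the receptors, *Robo4* had 5447 and 4091, with a centred log2 ratio of -0.35. *Robo1* and *Robo2* had centred log2 ratios of 0.05 and -0.01. *Robo2* had 157, 149 and 147 normalised reads in wild-type against 90.6, 144 and 168 in Npffr1-KO, with library A of Npffr1-KO the lowest of all.

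Netrins, secreted relatives of laminin, were divided. *Ntn1* (Entrez 18208), which attracts or repels axons depending on the receptor, had an authors' value of 1183 in wild-type against 765 in Npffr1-KO and a centred log2 ratio of -0.52. *Ntn4*, a netrin of basement membranes, had 168, 158 and 92.7 normalised reads in wild-type against 85.1, 119 and 79.0 in Npffr1-KO. Library C of wild-type lay within the range of Npffr1-KO, and the genotypes overlapped. Its means were 139 ± 40.7 and 94.4 ± 21.6 (SD, n = 3 each), with a log2 fold change of -0.54, a standard error of 0.25 and an adjusted p of 0.40 in limma. *Ntn3* and *Ntn5* had centred log2 ratios of 0.33 and 0.18, with overlapping libraries.

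Receptors of netrins include those for attraction and for repulsion. *Unc5a*, a receptor for repulsion by netrin, had an authors' value of 817 in wild-type against 1038 in Npffr1-KO and a centred log2 ratio of 0.40. *Unc5b*, the Unc5 receptor of vessels, had 1240 and 1023, and *Neo1*, which binds netrins and repulsive guidance molecules, had 1517 and 1255, with centred log2 ratios of -0.17 and -0.15. *Unc5cl* is named for its likeness to *Unc5c* and is not known as a netrin receptor. It was kept by its symbol and is counted among the 5 members, and the 3 receptors, that were higher by 1.3-fold after centring. It had 36.7, 39.2 and 27.0 normalised reads in wild-type against 34.9, 65.6 and 63.6 in Npffr1-KO, so that library A of Npffr1-KO fell among the wild-type libraries. Its log2 fold change was 0.63 with a standard error of 0.33 and an adjusted p of 0.45 in limma. Without *Unc5cl*, the 4 netrin receptors with a mean of at least 10 had a median of -0.16 without centring and -0.03 with it.

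Class A ephrins are held on the membrane by a lipid anchor and class B ephrins span it. *Efna2* (Entrez 13637) had 134, 159 and 134 normalised reads in wild-type against 195, 186 and 237 in Npffr1-KO. Each Npffr1-KO library lay above each wild-type library, as in 7.96% of all genes with recovered reads and a mean of at least 10. The means were 142 ± 14.1 and 206 ± 27.3 (SD, n = 3 each). The log2 fold change was 0.53 with a standard error of 0.16 and an adjusted p of 0.23 in limma. With each library centred on length it was 0.47, with an adjusted p of 0.35 in limma. *Efna4* had 53.6, 68.5 and 59.9 against 89.5, 73.7 and 72.3, without overlap, and a log2 fold change of 0.37 with a standard error of 0.25 and an adjusted p of 0.58. *Efna5* had the same authors' value in both genotypes to 3 digits, 759, and *Efna1* had 1196 in wild-type against 1105 in Npffr1-KO. The 3 class B ephrins had centred log2 ratios of -0.34 for *Efnb2*, -0.18 for *Efnb1* and -0.15 for *Efnb3*, with authors' values of 1547 and 1173 for *Efnb2*.

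Eph receptors, the largest family of receptor tyrosine kinases, held the member with the largest difference. *Epha5* (Entrez 13839), an Eph receptor of the nervous system, had 38.7, 37.2 and 17.4 normalised reads in wild-type against 17.5, 5.05 and 4.82 in Npffr1-KO. Library C of wild-type and library A of Npffr1-KO met at nearly equal counts, of 18 and 16 reads, while the other libraries stood well apart. The means were 31.1 ± 11.9 and 9.11 ± 7.23 (SD, n = 3 each). The centred log2 ratio of its authors' values was -1.08. In limma, without centring on length, the log2 fold change was -1.88 with a standard error of 0.53. Its adjusted p was 0.19 and did not pass 0.05. With each library centred on length it was -1.72, with an adjusted p of 0.32 in limma. Over means of at most 100 with this centring it was -1.43, with an adjusted p of 0.38 in limma. Of the others *Ephb4* had an authors' value of 4016 in wild-type against 3114 in Npffr1-KO, with a centred log2 ratio of -0.30, and *Epha2* had 462 and 366, with one of -0.27. *Ephb3* had 487 and 454 and *Epha4* 162 and 160. *Epha3* had 111, 135 and 51.2 normalised reads in wild-type against 55.6, 121 and 37.6 in Npffr1-KO, which overlapped widely. The class B receptors had a median centred log2 ratio of 0.11, which was -0.04 without centring.

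**Figure D4:**
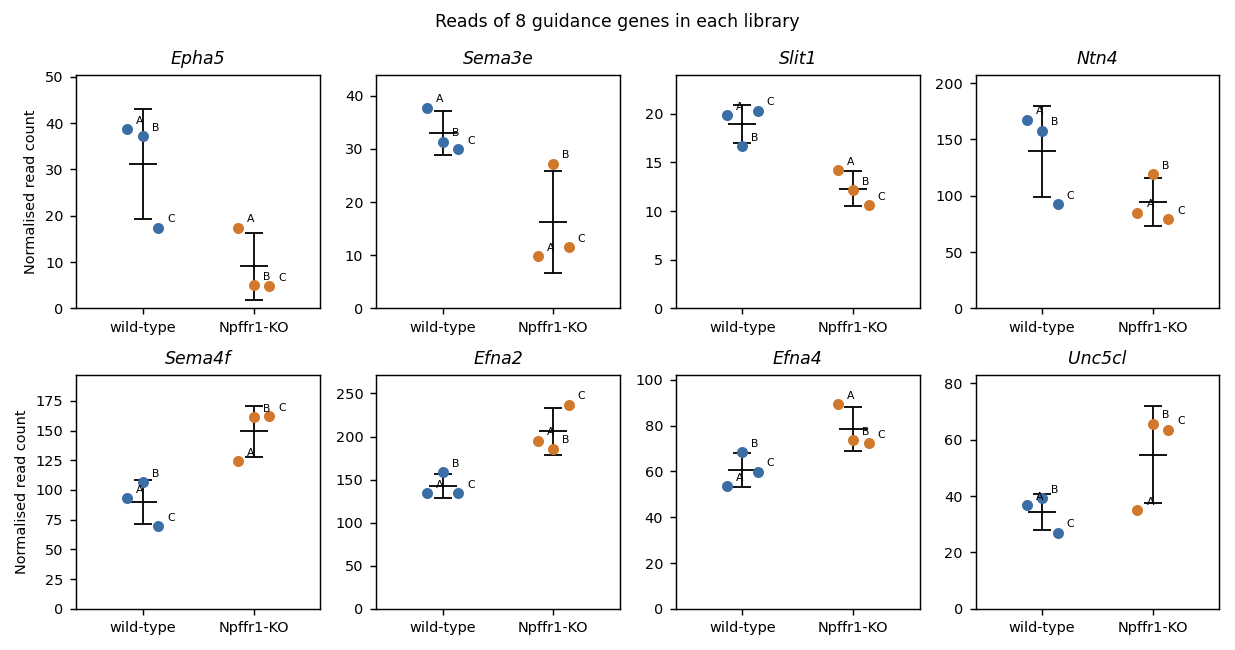
Normalised read count of 8 guidance genes in the 3 wild-type and 3 Npffr1-KO libraries (points, with library letters), with the mean and SD of each genotype. The genotypes do not overlap for *Sema3e*, *Slit1*, *Sema4f*, *Efna2* and *Efna4*. The genes shown include every member without overlap. Of the 21 members with recovered reads and a mean of at least 10, Npffr1-KO lay wholly below wild-type in 2 and wholly above in 3, beside 10.4% and 7.96% of all such genes.

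The recovered reads allowed a test for part of the members. Reads were recovered for 27 of the 70, all at most 300 normalised reads on average, and the 43 others, which include all the abundant receptors, could not be tested. Of the 21 members in the limma fit 0 passed an adjusted p of 0.05, whereas 10 of the 5683 genes fitted did (0.176%). In simulated reads the same test found 84 of 198 genes changed 2-fold (42.4%), so that true changes could be missed. At an unadjusted p of 0.05 there were 5 members, *Epha5*, *Sema3e* and *Ntn4* lower, beside 7.06% of all genes fitted, and *Sema4f* and *Efna2* higher, beside 5.21%, so that 12.3% of all genes were at this limit. Without wild-type library A there were 3 such members, and without 1 of the other libraries 4 to 7. With centring on length, 6 members were at this limit, beside 621 of the 5683 genes fitted. *Ntn4* was no longer among them, with an adjusted p of 0.49 in limma. Of the 21 members with recovered reads and a mean of at least 10, in 2 all Npffr1-KO libraries lay below all wild-type libraries, beside 10.4% of all such genes, and in 3 they lay above, beside 7.96%. The adjusted p of the 21 members ranged from 0.19 to 0.98. Library A of Npffr1-KO was the lowest of the 6 libraries in 7 of the 21 members and the highest in 4, and wild-type library C was the lowest in 5. Over genes with a mean of 10 to 100, genes of at least 3000 bases lay lowest against shorter ones in library A of Npffr1-KO. The difference there was -0.19 on the log2 scale, while the other libraries lay between -0.06 and 0.15. The part of library A of Npffr1-KO in the values that could not be split into libraries was not tested.

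Genes that act downstream of the guidance receptors or beside them lay near the background. Of a list of 82 adaptors, effectors and co-receptors 81 were in the table and 80 had a mean of at least 10. Their median centred log2 ratio was -0.04, with 4 lower and 3 higher by 1.3-fold, beside 8.93% and 6.12% of all genes. The largest was *Dscaml1*, an adhesion molecule of the nervous system, with an authors' value of 152 in wild-type against 238 in Npffr1-KO and a centred log2 ratio of 0.78. *Draxin*, a repulsive ligand of *Dcc*, had 26.5 and 36.1 and a centred log2 ratio of 0.56. Lower were *Grip1*, a scaffold that binds class B ephrins and Eph receptors, with 19.7 and 12.5, *Pak3*, a kinase activated by Rac and Cdc42, with 175 and 102, and *Kalrn*, an exchange factor of Rac, with 270 and 183. Their centred log2 ratios were -0.66, -0.63 and -0.42. *Ablim3*, which binds actin, had 7044 and 4947 and a centred log2 ratio of -0.45.

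Members that the table annotates to angiogenesis and those it annotates to axon guidance were set apart. Angiogenesis was given for 11 members, all with a mean of at least 10. Their median centred log2 ratio was -0.11, and 0 of the 11 were past 1.3-fold in either direction, where 8.93% of all genes were lower and 6.12% higher. Axon guidance was given for 32 members, of which 28 had a mean of at least 10, with a median of -0.15, 5 lower and 2 higher by 1.3-fold beside the same shares of all genes. The 36 other members of that level had a median of -0.12.

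Markers of several cell types differed between the genotypes as well. Of all genes, 8.93% were lower and 6.12% higher by 1.3-fold after centring. The tissue carried its adipocyte markers, with an authors' value of *Adipoq* of 37027 in wild-type against 35360 for Npffr1-KO, and the 8 adipocyte markers had a median centred log2 ratio of -0.05. Of these, 1 was higher by 1.3-fold, *Lep*, with 4210 and 8703 and a centred log2 ratio of 1.07. All 8 endothelial markers lay below 0 after centring, with a median of -0.25, 1 lower by 1.3-fold and a summed authors' value of 71749 in wild-type against 58348 in Npffr1-KO. Of the members described above as genes of vessels, *Sema3g* had a centred log2 ratio of -0.64, *Robo4* -0.35, *Efnb2* -0.34 and *Ephb4* -0.30. *Unc5b* had one of -0.17, *Plxnd1* -0.11 and *Nrp1* -0.02. Of the 8 Schwann cell markers 7 were lower and 1, *S100b*, was higher by 1.3-fold, with a median of -0.54 and a sum of 36241 and 26389. The median was -0.15 for 7 mural markers, with a sum of 48618 and 41132, and -0.20 for 8 adipocyte progenitor markers, with 44771 and 38739. The 5 lymphatic endothelial markers had a median of -0.13, but their sum was 8114 and 9351, led by *Ccl21a* with 5536 and 7100. The 6 T cell markers in the table were all higher by 1.3-fold, with a median of 0.56 and a sum of 6627 and 10478. *Sema4a*, *Sema4d* and *Plxnc1*, which are known from immune cells, had centred log2 ratios of 0.32, 0.36 and 0.56. *Sema7a*, the ligand of *Plxnc1*, had one of -0.21, and 2 of the 6 class 4 semaphorins lay below 0. The 5 B cell and 7 macrophage markers had medians of 0.16 and 0.09, with sums of 8704 and 10361 and of 20274 and 23740. Skeletal muscle markers had a median of 0.56 over 6 genes, with a sum of 838 and 1204, and epithelial markers one of -0.18 over 3 genes. The 8 neuronal markers ranged in wild-type from 2.32 for *Nefl* to 217 for *Stmn2*, with a sum of 303 and 311. The 5 with a mean of at least 10 had a median of -0.01, with *Rbfox3* at -0.46 and *Syt1* at 0.54. The part of these cell types in the values of the guidance genes was not tested.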

How the data were processed

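RNA was extracted with TRIzol and sequenced. The labels name Bowtie2, RSEM and DESeq2 as tools of the submitters' processing, without versions. Genome build, annotation and strand setting were not given in the sources used here. The deposited values are a signal, read counts that the authors scaled by library size factors and gave as 1 value per genotype, with the gene length. The deposited fold changes, p-values and calls of the authors' own comparison were not used, nor was a shorter table of their selected genes. Members and gene lists were chosen with earlier results of these data known.

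The log2 ratio of both values was centred on the median of 20 length classes of equal size over genes with a mean of at least 10. Whole reads per library were recovered from the mean of both values and the size factors, for means of at most 300. Where several combinations matched, 1 was accepted if it held at least 99% of the weight under a model of read counts. This gave reads for all 5650 genes with a mean of up to 25, and for 1120 of 1647 between 150 and 300. This model has a common mean for all libraries, and above 25 not every combination was listed, so that genes with little spread are favoured at high means. Above 25, the weight also takes the ratio of the authors' values into account. Where several combinations matched there, the recovered fold changes are therefore not independent of that ratio. The genotype of each library comes from the direction of genes with 1 read. Limma 3.58.1 with a variance trend was run two-sided on log2(normalised reads + 0.5) of genes with a mean of at least 5, with Benjamini-Hochberg adjustment over the 5683 genes fitted. Recovery and test were checked on simulated data. With reads simulated at an assumed spread, limma found 84 of 198 genes changed 2-fold and called 4 unchanged genes. Named are the 2 highest members of each family per kb, the 10 with the largest centred ratio, those at an unadjusted p of 0.05 and the 6 pathway genes with the largest ratio, and others by family. Replicate errors are SD.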

Additional observations from a re-analysis of the deposited data

How the results depend on the processing

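Without centring on length the median log2 ratio of the members was -0.21, 18 members were lower by 1.3-fold, and 11 genes of the other guidance pathway list were lower in place of 4. A threshold of 1.5-fold, chosen after seeing the data, left 4 members lower, beside 3.51% of all genes, and 1 higher, beside 2.24%. Other settings were 10 or 40 classes, a minimum mean of 1 or 50, pseudocounts of 1 or 10 and a straight line on length. The line was also chosen after seeing the data. Under these the median lay between -0.14 and -0.13, 9 to 12 members were lower and 4 to 7 were higher, with 7 at a minimum mean of 1. The 10 members with the largest ratio kept their sign in all 77 values. They were picked for the size of that ratio, and every value comes from the same 2 pooled values. A kept sign was therefore to be foreseen and is no separate support. Ratios of low members shrank with a pseudocount of 10, that of *Epha5* to -0.65 and that of *Sema3e* to -0.43. The number of members passing limma was 0 under every alternative, and from 0 to 0 when 1 library was left out, while the genes called lay between 2 and 14 over all alternatives. These included fits of means of at most 100, where reads of nearly all genes were recovered, chosen after seeing the data. The adjusted p in limma ranged from 0.17 to 0.67 for *Epha5*, from 0.13 to 0.67 for *Sema3e*, from 0.19 to 0.61 for *Sema4f*, from 0.20 to 0.62 for *Efna2* and from 0.24 to 0.78 for *Ntn4*. Their fold changes kept their sign, but these genes were picked by their unadjusted p in the same reads, so that this is no separate support. No paired analysis was possible because the deposited values carry no sample numbers and the recovered libraries could not be tied to them. For the 43 members without recovered reads no library could be left out. The pooled values hide the spread of the abundant members, and low members rest on few reads.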
